A study of Mus musculus with 8 samples.

Results

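The RIKEN clone genes of the 1700 series are mouse genes that still carry the provisional symbol of a full-length cDNA clone. They were taken as every gene whose platform symbol, on a probe set carrying 1 gene, has the form 1700, more digits, a letter, digits and Rik. 1700012A03Rik was left out, and the probe set with the highest mean over all 8 arrays stood for each gene. This gave 128 genes of the 19411 genes on the array, with no filter on their level. RefSeq classes 76 of them as protein coding and 40 as long non-coding RNA (lncRNA). A further 8 are transcribed pseudogenes, 1 is a non-coding RNA pseudogene, 1 is a miscellaneous RNA and 2 were not classed because their symbol is a RefSeq synonym of another gene.

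RNA of C57/Bl6 mice was hybridised to Affymetrix gene arrays, 1 for each sample. The study asked how the diet of males relates to the RNA of their sperm. Sperm from the caudal epididymis came from males on a control diet (3 arrays), a low protein diet (2 arrays) or caloric restriction (1 array). Epididymal tissue came from males on the control diet and on the low protein diet, with 1 array each. Control and low protein males were kept on their diet until 9 to 12 weeks of age and then placed with females; no age is stated for caloric restriction. All sperm samples had a microscopic purity above 99.5%, and preparations with Actb or Myh11 detectable by PCR had been rejected, per the labels. The labels do not say whether a sample was 1 male or a pool, and a p-value here reflects no more than how far these arrays differ from each other, part of which may be technical. Values are log2 intensities, on which a difference of 1 is a 2-fold change.

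In the names of RIKEN clones the leading digits mark the library a clone was sequenced from, and the 1700 library was made from adult mouse testis. Mature sperm are transcriptionally silent, and the RNA in them was mostly made earlier, in meiotic spermatocytes and round spermatids. Promoters of genes used in these stages are known targets of the MYB family (MYBL1 in meiosis), of the CREB family member CREM in spermatids, and of RFX factors, which bind X-box motifs in genes of cilia and of the sperm tail. Several genes of this clone series have since been recognised as parts of the axoneme, the microtubule core that cilia and sperm tails share. For most of the 128 genes no role is given here, because none was known with certainty.

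RefSeq (GRCm38.p6) gave promoter windows for 98 of the 128 genes, 120 windows in all, each from 250 bases before to 50 bases after a transcript start. Windows are shown for the 4 genes that hold a full X-box palindrome and for 1 lncRNA with a MYB motif, to show where the motifs stand, and their levels in the comparisons are given with the results. The letters are written 5′ to 3′ on the strand of the gene, with the motif in capitals.
1700034J05Rik (chr6:146954372-146954671, minus strand): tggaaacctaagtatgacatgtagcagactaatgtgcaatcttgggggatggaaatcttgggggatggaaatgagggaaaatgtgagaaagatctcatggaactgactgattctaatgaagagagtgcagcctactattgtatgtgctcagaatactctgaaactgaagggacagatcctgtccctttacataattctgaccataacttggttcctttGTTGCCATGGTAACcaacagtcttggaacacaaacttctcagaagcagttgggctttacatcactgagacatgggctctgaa
1700010I14Rik (chr17:8988083-8988382, plus strand): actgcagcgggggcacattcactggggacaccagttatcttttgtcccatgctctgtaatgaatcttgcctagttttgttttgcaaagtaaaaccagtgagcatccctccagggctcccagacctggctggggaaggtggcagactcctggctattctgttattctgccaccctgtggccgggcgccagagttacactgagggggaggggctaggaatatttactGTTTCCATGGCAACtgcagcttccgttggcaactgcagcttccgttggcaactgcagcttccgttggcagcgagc
1700041B01Rik (chr15:78670388-78670687, plus strand): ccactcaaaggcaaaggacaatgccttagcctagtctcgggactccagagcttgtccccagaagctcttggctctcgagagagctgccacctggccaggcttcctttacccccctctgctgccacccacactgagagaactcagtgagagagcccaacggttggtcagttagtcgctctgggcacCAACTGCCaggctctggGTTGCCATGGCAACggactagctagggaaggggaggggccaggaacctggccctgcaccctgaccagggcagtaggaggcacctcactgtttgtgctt
1700088E04Rik (chr15:79141202-79141501, minus strand): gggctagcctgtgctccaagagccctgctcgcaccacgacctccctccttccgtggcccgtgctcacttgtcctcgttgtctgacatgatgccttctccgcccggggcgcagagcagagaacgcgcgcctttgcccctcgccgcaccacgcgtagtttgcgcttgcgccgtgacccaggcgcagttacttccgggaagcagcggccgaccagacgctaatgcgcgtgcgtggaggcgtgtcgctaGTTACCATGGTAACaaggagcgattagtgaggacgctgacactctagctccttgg
1700001L05Rik (chr15:83367248-83367547, minus strand): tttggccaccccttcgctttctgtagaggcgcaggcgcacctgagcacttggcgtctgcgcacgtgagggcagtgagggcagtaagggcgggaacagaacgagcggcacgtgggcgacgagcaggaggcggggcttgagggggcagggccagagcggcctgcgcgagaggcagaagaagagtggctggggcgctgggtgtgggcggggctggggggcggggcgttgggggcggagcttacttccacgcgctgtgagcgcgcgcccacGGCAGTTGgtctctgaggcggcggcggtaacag
The X-box palindrome GTTNCCATGGNAAC was in 4 of the 120 windows (3.33%), against 42 of all 32851 windows (0.128%). Counted from the transcript start as 0, it lay at bases -32 to -19 in 1700034J05Rik, -25 to -12 in 1700010I14Rik, -48 to -35 in 1700041B01Rik and -5 to 8 in 1700088E04Rik. The shorter site GTTGCCAT, which overlaps some of the palindromes, was in 5% of the windows of these genes against 1.35% of all windows. The MYB motif GGCAGTTG stood in 5% against 1.24%; 1700041B01Rik holds it on the opposite strand beside its X-box, and 1700001L05Rik has it at bases 17 to 24. Other motifs were no more frequent than in all windows or nearly so. The CREB family palindrome TGACGTCA was in 1.67% against 1.79%, its core TGACGT in 5.83% against 7.51%, TATAAA in 8.33% against 13.6% and CCAAT in 40% against 37.4%. All motifs were searched on both strands, the motifs were chosen with earlier results known, and a match describes letters and not a bound site. The median GC content was 52% in these windows and 52.7% in all windows.

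The arrays were alike in their overall level, with table medians from 6.29 to 6.37. Over all genes, the 3 control sperm arrays correlated with each other between 0.977 and 0.985 and the 2 epididymis arrays at 0.991. The caloric restriction array correlated with the controls between 0.929 and 0.942, below their own range. Low protein replicate 2 stood farthest apart, with 0.869 to 0.93 against the other sperm arrays. Some counts and medians of the low protein comparisons within sperm are given with and without it. Their counts at an unadjusted p and at an adjusted p under 0.10 are given only with it. The labels of the tissues held in the markers. The mean of 12 late spermatid markers (such as Prm1, Tnp1 and Akap4) lay between 9.78 and 10.99 on the sperm arrays and at 6.91 and 6.89 in epididymis. The mean of 12 smooth muscle markers (Myh11 among them) was 6.82 to 7.64 in sperm and 10.05 and 10.09 in epididymis.

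Signals of the 1700 series were near the array's median in control sperm, higher in sperm of both restricted diets and lower in epididymis. The signal of a probe set depends on its probes, so an order of genes by level is one of signal and not of RNA amount. Their mean log2 level was 6.61, 6.44 and 6.42 on the control sperm arrays, 6.83 and 7.16 under low protein, 7.34 under caloric restriction, and 5.51 and 5.53 in epididymis. The mean over all genes stayed between 6.29 and 6.36 on every array. Of the 128 genes, 62 to 69 lay above the array's median in control sperm, 87 and 90 under low protein, 97 under caloric restriction, and 28 and 29 in epididymis. Above a log2 level of 9 there were 5 to 7 of them in control sperm, 7 and 12 under low protein, 12 under caloric restriction and 0 in epididymis. Of the 128 genes, 97 of the 128 had a mean above the 30th percentile (log2 5.69), and the rest sat in the dimmest range, where an array separates signal from background least.

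Sperm against epididymis gave the most calls of the comparisons made, with 91 of the 128 genes higher in sperm and 3 lower (limma, adjusted p under 0.05 over 19411 genes). These are 71.1% and 2.34% of the 128, beside 15.2% higher and 22.7% lower among all genes. The median difference was 0.978 on the log2 scale over the 128 genes and 0.047 over all genes, and 123 of the 128 differences were above 0. The 91 rises ran from 0.54 to 4.15, which is 1.45-fold to 17.7-fold, and 62 of them were at least 2-fold. On the deposited values, before any fit, 99 genes had every sperm array above both epididymis arrays, against 22.9% of all genes. In whole tissue, a lower level of a transcript can come from fewer cells of a type or from less RNA per cell, and the arrays cannot tell these apart. Sperm lying in the ducts are also part of the epididymal tissue, and their share of its RNA was not measured. Cyclic loess moved the split over all genes from 2944 higher and 4401 lower to 3951 and 3801. Without the low protein epididymis array the median difference was 0.769 over the 128 genes and 0.025 over all genes, with 121 of the 128 above 0. This fit rests on 1 epididymis array, so the number of its calls is not given.

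Among the protein-coding genes, 61 of 76 rose and 2 fell; among the lncRNAs, 23 of 40 rose and 0 fell, where 161 of all 713 lncRNAs on the array rose and 23 fell. The pseudogenes gave 5 rises and 1 fall among 9. The median difference was 1.273 for the coding genes and 0.611 for the lncRNAs, against 0.024 and 0.27 over all genes of those classes. Of 180 genes named for clones of other testis libraries, 91 rose and 4 fell, with a median of 0.545. Of 426 genes with other RIKEN clone names, 67 rose and 35 fell, with a median of 0.183. No test was made between these lists.

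1700009N14Rik, a protein-coding gene, had the largest rise among the 128. Its level was 9.95, 9.69 and 9.76 on the control sperm arrays, 10.61 and 11.21 under low protein, 11.17 under caloric restriction, and 6.09 and 6.27 in epididymis. Every sperm array lay far above both epididymis arrays, with no overlap. The fitted difference was 4.15 ± 0.24 (SE; 5 sperm and 2 epididymis arrays set it), with an adjusted p by limma of 6.96e-06.
1700016H13Rik, also coding, gave the highest signal of the series on every sperm array. It stood at 10.51, 10.27 and 10.24 in control sperm, 11.00 and 11.57 under low protein, 11.27 under caloric restriction, and 6.51 and 6.84 in epididymis. The groups did not overlap, and the difference was 4.12 ± 0.21 (adjusted p by limma 4.22e-06). 1700003E16Rik (3.80 ± 0.26), 1700001O22Rik (3.70 ± 0.24) and 1700029H14Rik (3.70 ± 0.22) followed, all coding and all between 8.87 and 10.42 on the sperm arrays.

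Some of the largest rises were lncRNAs, transcripts with no known protein product. 1700009J07Rik was at 9.28, 8.93 and 8.63 in control sperm, 9.63 and 10.36 under low protein, 9.33 under caloric restriction, and 5.94 and 6.04 in epididymis. It rose by 3.45 ± 0.28 from epididymis to sperm. 1700031M16Rik rose by 3.32 ± 0.30 and 1700030C12Rik by 3.30 ± 0.25. 1700001L05Rik, whose window carries the MYB motif just after the start, was at 9.24 to 9.63 in control sperm and at 7.17 and 7.10 in epididymis, a rise of 2.72 ± 0.26. The others of the 12 largest rises were the coding genes 1700024J04Rik (3.11 ± 0.17), 1700034E13Rik (3.00 ± 0.28) and 1700017N19Rik (2.82 ± 0.20). All 12 had an adjusted p by limma of 6.43e-05 or less.

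**Figure D1:**
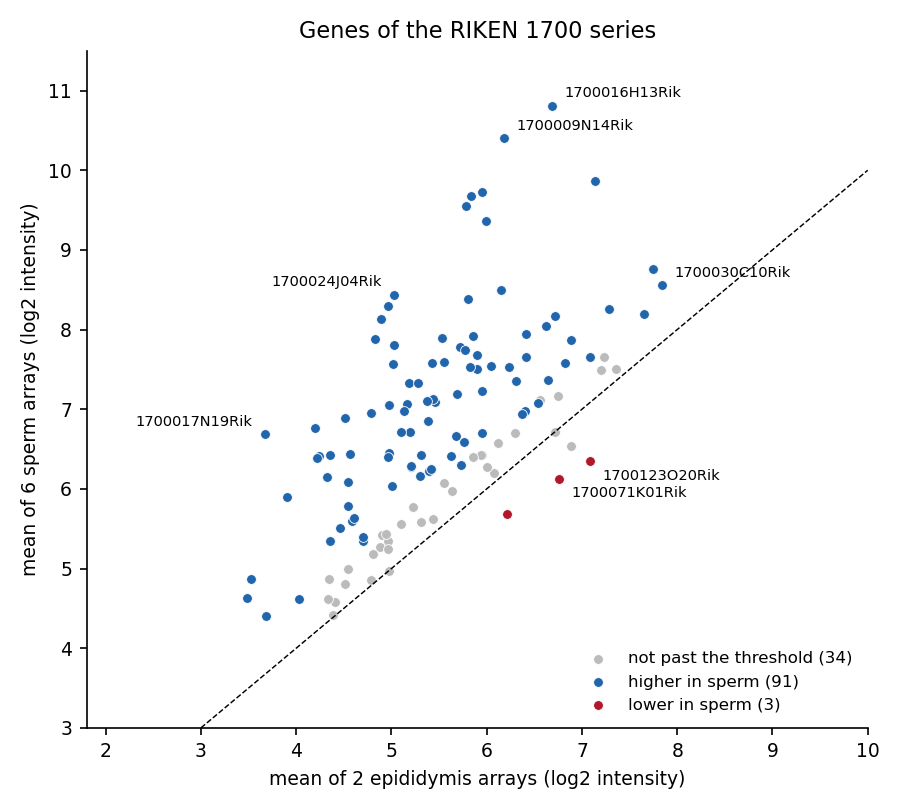
The mean log2 intensity of each of the 128 genes over the 6 sperm arrays (vertical axis) against its mean over the 2 epididymis arrays (horizontal axis), 1 point per gene, with a dashed line of equal levels. The 91 genes called higher (blue) lie above the line, the 3 called lower (red) below it, and 34 did not pass (grey); 1700009N14Rik and 1700016H13Rik lie far above it, at 4.15 and 4.12 in the fit.

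The 4 genes with an X-box palindrome were all higher in sperm but far from the top. 1700010I14Rik was at 6.90, 6.94 and 6.99 in control sperm and at 6.04 and 5.76 in epididymis (1.35 ± 0.21). 1700034J05Rik was at 7.19, 6.71 and 6.95 against 6.17 and 5.90 (1.33 ± 0.25). The lncRNA 1700041B01Rik (0.60 ± 0.18) and 1700088E04Rik (0.54 ± 0.19) rose less, with adjusted p by limma of 0.0238 and 0.0477. Of the whole series 71.1% were called higher, and the X-box genes were not tested against the other members.
Only 3 of the 128 genes were lower in sperm. 1700123O20Rik was at 6.37, 6.52 and 6.62 in control sperm, 6.21 and 5.80 under low protein, 6.59 under caloric restriction, and 7.09 and 7.08 in epididymis. All sperm values lay below both epididymis values, and the difference was -0.81 ± 0.18 (adjusted p by limma 0.00675). The pseudogene 1700084J12Rik (-0.55 ± 0.17, adjusted p 0.032) and 1700071K01Rik (-0.54 ± 0.16, adjusted p 0.0267) fell less, and none of the 3 was called without the low protein epididymis array. The next 2 by p, 1700025G04Rik (-0.25 ± 0.15) and 1700018A04Rik (-0.08 ± 0.18), did not pass. 1700025G04Rik alone had a second probe set, which read 4.88 to 5.24 on all arrays.

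The 6 genes of the series with the highest signal in epididymis were picked for that signal, which favours small differences. 1700030C10Rik led there, at 7.85 and 7.84, and read 8.66, 8.45 and 8.22 in control sperm, a rise of 0.79 ± 0.21. 1700008J07Rik stood at 7.81 and 7.68 in epididymis and 8.59 to 8.81 in control sperm (1.01 ± 0.18), and 1700037H04Rik at 7.26 and 7.30 against 7.94 to 8.10 (0.90 ± 0.16). 1700066M21Rik was at 7.78 and 7.52 in epididymis (0.63 ± 0.18). These 4 passed, with adjusted p by limma from 0.00172 to 0.0206. 1700025H01Rik (0.28 ± 0.18) and 1700086O06Rik (0.45 ± 0.18), with epididymis levels of 7.13 to 7.52, did not pass.

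Several members have a RefSeq synonym that tells what they encode; these were chosen for that name after their values were seen. 1700019D03Rik, the small membrane anchor of protein kinase A (smAKAP), was at 7.57, 7.52 and 7.47 in control sperm, 7.98 and 8.54 under low protein, 8.57 under caloric restriction, and 6.28 and 6.53 in epididymis. It rose by 1.47 ± 0.19 in sperm. 1700016K19Rik, the arginyltransferase ligand Liat1, rose by 1.32 ± 0.20. 1700020D05Rik, a MAGE family gene (synonym mage-g2), rose by 1.87 ± 0.24, and 1700074P13Rik, a trypsin-like protease gene (Tryx5), by 2.02 ± 0.18. The X-linked 1700013H16Rik, of the Xlr and Slx gene family of germ cells, was dim, at 3.95 to 4.21 in control sperm and 3.38 and 3.98 in epididymis, and rose by 0.66 ± 0.15. 1700007K13Rik, known since as Pierce1, a protein inside ciliary doublet microtubules, rose by 0.87 ± 0.16.
For 2 symbols RefSeq gives the name of another gene that the array also measured. 1700031F10Rik, a synonym of the testis chaperone gene Dnajb8, rose by 1.82 ± 0.25 from 4.93 and 5.38 in epididymis to 6.28 to 6.77 in control sperm, while the probe set named Dnajb8 read 9.14 to 9.22 and 6.50 to 6.59. 1700064E03Rik, a synonym of the histone demethylase gene Kdm6b, averaged 5.69 ± 0.28 (SD, n = 3) in control sperm and 5.21 and 5.41 in epididymis, and its difference of 0.31 ± 0.19 did not pass. The probe set named Kdm6b read 7.90, 8.00 and 8.11 in control sperm and 7.05 and 7.11 in epididymis.

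The diets were compared within sperm. Caloric restriction, on 1 array, is assumed in the fit to vary like the other sperm groups. Against the 3 control arrays, 49 of the 128 genes were higher and 0 lower, where 4.59% of all genes were higher and 0.0567% lower (limma, adjusted p under 0.05). The median difference was 0.874 over the 128 genes and -0.104 over all genes; with cyclic loess the latter was -0.003. The 49 rises ran from 0.93 to 2.57, or 1.9-fold to 5.92-fold, and 47 were at least 2-fold. Of the coding genes 38 of 76 rose, of the lncRNAs 5 of 40 and of the pseudogenes 5 of 9. These classes were not tested against each other, and the shares among all genes of each class are not given here. The caloric restriction array lay above all control arrays for 101 genes and below them for 8, against 25.6% and 43.4% of all genes. Leaving out control replicate 2 or 3 gave 24 or 27 rises, where 435 or 440 of all genes rose. Leaving out either low protein array left the spread to the 3 control arrays alone, so calls of those fits are not counted. What distinguishes the 1 caloric restriction array beyond its diet, such as age or handling, cannot be told apart from it.

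1700028P14Rik had the largest rise under caloric restriction among the 128 genes. It was at 6.15, 5.75 and 6.02 in control sperm, 6.93 and 7.25 under low protein, 8.54 under caloric restriction, and 4.11 and 4.30 in epididymis. Both diets lay above all controls, and caloric restriction stood above low protein. Against control the difference was 2.57 ± 0.25 (adjusted p by limma 0.00164). 1700024J04Rik rose by 2.34 ± 0.22, from 7.81, 7.76 and 7.90 to 10.16, and 1700001J03Rik by 2.32 ± 0.22, from 7.18, 7.16 and 7.08 to 9.46. The X-linked 1700080O16Rik rose by 2.31 ± 0.22 and 1700019A02Rik by 2.15 ± 0.24. The lncRNA 1700086L19Rik rose by 2.13 ± 0.23, from 6.18 to 6.46 in control sperm to 8.43.
The X-box gene 1700010I14Rik was next, at 6.90 to 6.99 in control sperm, 7.59 and 7.64 under low protein and 9.01 under caloric restriction, a rise of 2.07 ± 0.21 (adjusted p by limma 0.00171). The other X-box genes differed among themselves. 1700034J05Rik rose by 1.72 ± 0.25, while 1700088E04Rik (0.58, adjusted p by limma 0.385) and the lncRNA 1700041B01Rik (-0.14, adjusted p 0.846) did not pass. Neither did 1700001L05Rik, the lncRNA with the MYB motif (0.82 ± 0.29, adjusted p by limma 0.211). 1700012P22Rik (2.02 ± 0.22), 1700016D06Rik (2.02 ± 0.23) and 1700018F24Rik (1.99 ± 0.25) completed the 10 largest rises.

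Among the genes with a known product, Pierce1 (1700007K13Rik) went from 6.17, 6.04 and 5.98 in control sperm to 7.75 under caloric restriction, a rise of 1.69 ± 0.22, with low protein at 6.20 and 6.41. The MAGE family gene 1700020D05Rik rose by 1.60 ± 0.24, the protease gene 1700074P13Rik by 1.46 ± 0.24, Liat1 (1700016K19Rik) by 1.26 ± 0.27 and the Xlr family gene 1700013H16Rik by 1.01 ± 0.22. The nucleoporin-like pseudogene 1700123L14Rik rose by 1.93 ± 0.22. smAKAP (1700019D03Rik) had a difference of 1.05 ± 0.26 that did not pass (adjusted p by limma 0.0567).
No gene of the series passed in the lower direction. The 6 of smallest p there were 1700025H01Rik (-0.58 ± 0.26, adjusted p by limma 0.363), 1700025G04Rik (-0.33), 1700066M21Rik (-0.32), 1700064E03Rik (-0.31), 1700069L16Rik (-0.26) and 1700086D15Rik (-0.24).

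Low protein against control sperm gave 0 calls in either direction, as over all genes (0%). At an unadjusted p under 0.05, 72 of the 128 genes were higher and 1 was lower, where 10.8% and 9.82% of all genes were. At an adjusted p under 0.10 the counts were 26 and 0, where 2.82% of all genes were higher and 0.134% lower. The median difference was 0.538 over the 128 genes and 0.014 over all genes, and 118 of 128 were above 0. Without low protein replicate 2 the median was 0.337 over the 128 genes and -0.065 over all genes, and 103 of 128 were above 0. Both low protein arrays lay above all control arrays for 84 genes and below them for 2, against 18.6% and 17.2% of all genes. Low protein replicate 1 alone lay above them for 86 and below for 10, against 22.7% and 34.8%. The smallest adjusted p by limma for a gene of the series was 0.086. Without low protein replicate 1 the median was 0.697 over the 128 genes and 0.12 over all genes. Leaving out either replicate left 1 low protein array, so calls of those fits are not counted.

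The lncRNA 1700030C12Rik had the largest difference under low protein among the 128 genes. It was at 7.73, 7.48 and 7.57 in control sperm, 8.48 and 9.22 under low protein, 8.34 under caloric restriction, and 4.72 and 5.06 in epididymis. The difference was 1.26 ± 0.23 (adjusted p by limma 0.086). 1700019N19Rik (1.13 ± 0.21), 1700028P14Rik (1.12 ± 0.20), 1700019A02Rik (1.03 ± 0.19), the pseudogene 1700019M22Rik (1.02 ± 0.19) and 1700012P22Rik (0.90 ± 0.17) had the same adjusted p. In each of these 6, both low protein arrays were above all 3 control arrays.
Of the genes whose windows are shown, 1700001L05Rik differed by 0.93 ± 0.23 (adjusted p by limma 0.0987), 1700034J05Rik by 0.91 ± 0.20 (0.086), 1700010I14Rik by 0.67 ± 0.17 (0.0985), 1700088E04Rik by 0.45 ± 0.21 (0.264) and 1700041B01Rik by 0.21 ± 0.21 (0.604), none past the threshold.
On the lower side, 1700123O20Rik had the smallest p, at -0.50 ± 0.19 (adjusted p by limma 0.198), with low protein at 6.21 and 5.80 and control sperm at 6.37 to 6.62. 1700084J12Rik (-0.32), 1700069L16Rik (-0.27), 1700064E03Rik (-0.17), 1700036A12Rik (-0.09) and 1700001G17Rik (-0.07) did not pass either.

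**Figure D2:**
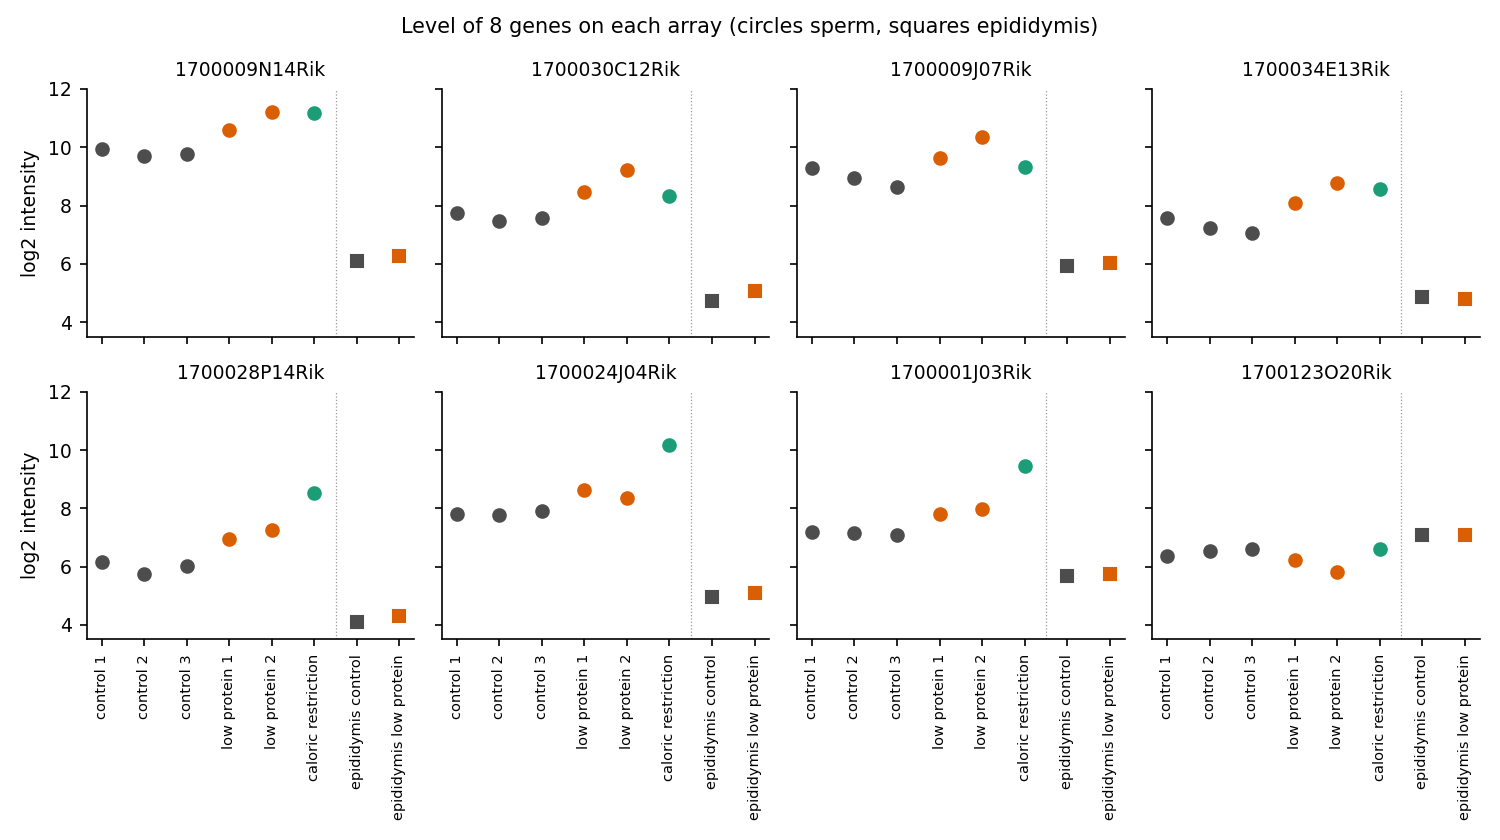
The log2 intensity (vertical axis) of 8 genes of the series on each of the 8 arrays (horizontal axis), with circles for sperm and squares for epididymis; grey is control, orange low protein and green caloric restriction. 1700028P14Rik, 1700024J04Rik and 1700001J03Rik are highest under caloric restriction (8.54, 10.16 and 9.46), 1700030C12Rik is highest on low protein replicate 2 (9.22), and 1700123O20Rik is higher in epididymis (7.09 and 7.08) than on any sperm array.

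With the 3 restricted arrays (low protein and caloric restriction) set against the 3 control arrays, 22 of the 128 genes were higher and 0 lower. Over all genes 1.92% were higher and 0.0206% lower, and the medians were 0.612 for the series and -0.021 for all genes. The control arrays are those of the previous comparisons, so this is not a separate observation. The 22 rises were 0.93 to 1.60 with adjusted p by limma from 0.0427 to 0.0499, close to the threshold. Of them 18 were coding, 2 lncRNAs and 2 pseudogenes, with no test between the classes. No gene was called without any one of the control arrays or without the caloric restriction array. Without low protein replicate 1 the count was 54, where 955 of all genes were higher and 286 lower. Without replicate 2 it was 39, where 667 and 21 of all genes were. With all arrays, 372 of all genes were higher and 4 lower.

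The largest rise was again 1700028P14Rik, at 1.60 ± 0.35. 1700019A02Rik rose by 1.40 ± 0.29; it was at 5.30, 5.30 and 4.99 in control sperm, 6.11 and 6.34 under low protein and 7.35 under caloric restriction. 1700016D06Rik (1.30 ± 0.28), 1700019M22Rik (1.28 ± 0.24), 1700017N19Rik (1.26 ± 0.27) and 1700018B24Rik (1.22 ± 0.27) followed. These were picked among genes past the threshold whose restricted arrays all lay above all control arrays, so this order follows from the choice. 1700129C05Rik rose by 1.22 ± 0.22, 1700093K21Rik by 1.19 ± 0.25, 1700034E13Rik by 1.19 ± 0.22 and 1700009N14Rik by 1.19 ± 0.20. The X-box gene 1700034J05Rik was among the 22 (1.18 ± 0.24, adjusted p by limma 0.0464), and 1700010I14Rik was not (1.14 ± 0.33, adjusted p 0.103). Nor were 1700088E04Rik (0.49 ± 0.19), 1700041B01Rik (0.10 ± 0.20) and the lncRNA 1700001L05Rik (0.89 ± 0.20, adjusted p by limma 0.0538). On the lower side the 6 of smallest p, none past the threshold, were 1700123O20Rik (-0.30), 1700084J12Rik (-0.27), 1700069L16Rik (-0.26), 1700064E03Rik (-0.22), 1700025H01Rik (-0.12) and 1700036A12Rik (-0.11).

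**Figure D3:**
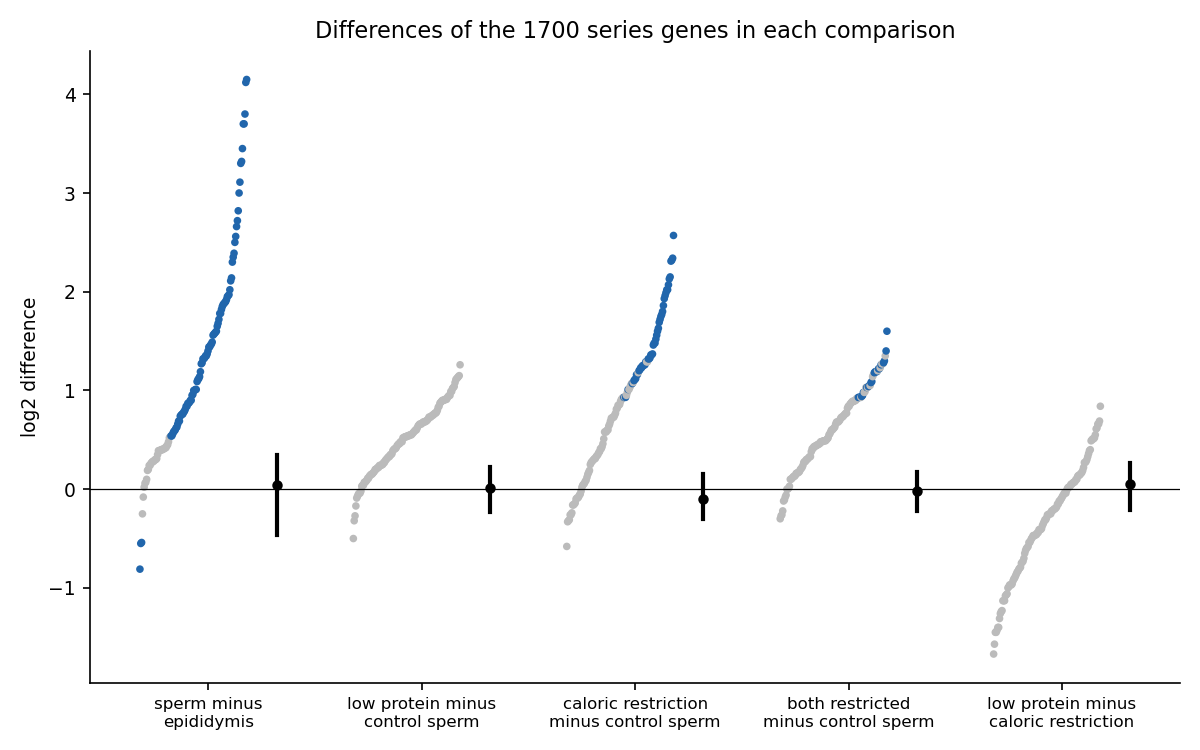
The log2 difference of each of the 128 genes (points, sorted within each of 5 comparisons; blue past an adjusted p of 0.05, grey not) beside the median and quartiles of all genes (black). The medians of the 128 genes are 0.978, 0.538, 0.874, 0.612 and -0.276 from left to right, while those of all genes lie between -0.104 and 0.049.

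The order of the 6 sperm arrays was graded for many of the genes. For 52 of the 128 (40.6%), both low protein arrays were above every control array and below the caloric restriction array, against 6.64% of all genes. With low protein replicate 1 alone, 72 (56.2%) had this order, against 11.9% of all genes. Both low protein arrays, but not the caloric restriction array, were above the controls for 6 genes (4.69%, against 5.37%), and the reverse held for 4 (3.12%, against 5.28%). The former were 1700008P02Rik, 1700025G04Rik, 1700034I23Rik, 1700061I17Rik, 1700066M21Rik and 1700071K01Rik. The latter were 1700003H04Rik, 1700029J07Rik, 1700034H15Rik and 1700055D18Rik; both sets are named by this order, after the values were seen.
The highest of the 6 sperm arrays was caloric restriction for 68 of the 128 genes (53.1%) and low protein replicate 2 for 51 (39.8%), where 15.4% and 37.2% of all genes had their highest value there. The control arrays were highest for 2, 1 and 4 of the 128 genes, against 11.1%, 12% and 20.4% of all genes, and low protein replicate 1 for 2, against 3.88%. The shares by class are given as counts, with no test of a difference between classes. Caloric restriction was highest for 49 of 76 coding genes (64.5%), 6 of 9 pseudogenes (66.7%) and 12 of 40 lncRNAs (30%). Low protein replicate 2 was highest for 23 coding genes (30.3%), 2 pseudogenes (22.2%) and 25 lncRNAs (62.5%). Over all lncRNAs on the array the shares were 10.7% and 52.7%, so low protein replicate 2 was the highest array for most lncRNAs of any name. Without that array, caloric restriction was the highest of 5 for 93 of the 128 genes (72.7%, against 22.5% of all genes), 62 of them coding and 22 lncRNAs.

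**Figure D4:**
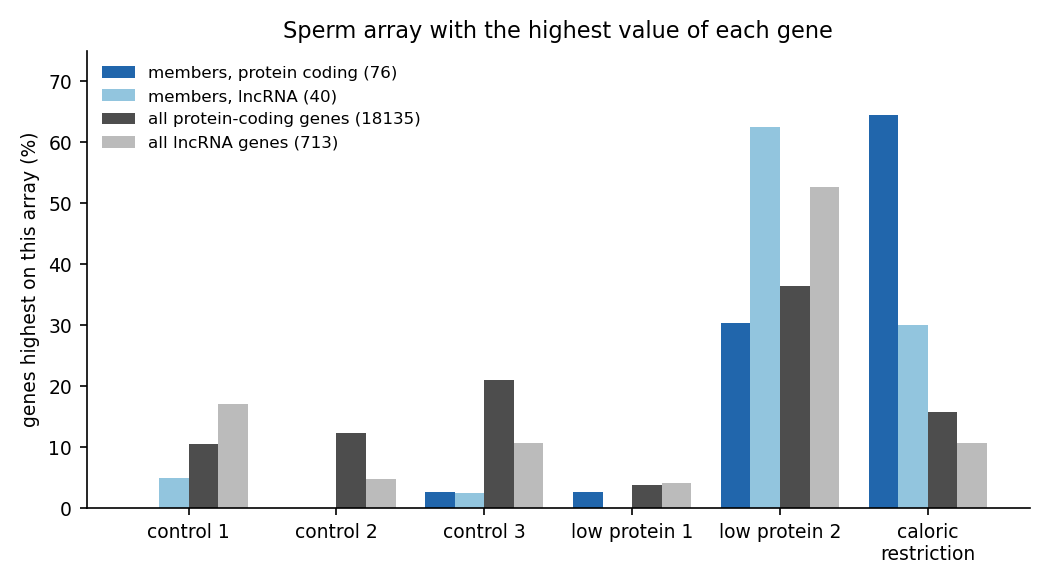
The share of genes (percent, vertical axis) whose highest value among the 6 sperm arrays fell on each array (horizontal axis), for the 76 coding genes and 40 lncRNAs of the series (blue) and for all coding genes and lncRNAs on the array (grey). Caloric restriction takes 64.5% of the coding genes of the series against 15.7% of all coding genes, and low protein replicate 2 takes 62.5% of its lncRNAs against 52.7% of all lncRNAs.

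Low protein and caloric restriction were not told apart at the threshold, with 0 calls among the 128 genes and 0% of all genes. At an unadjusted p under 0.05, 40 of the 128 genes were lower under low protein and 5 higher, where 6.01% and 3.53% of all genes were. At an adjusted p under 0.10, 10 of the 128 were lower, against 0.742% of all genes, and the median difference was -0.276 against 0.049. Without low protein replicate 1 the median was -0.105 over the series and 0.105 over all genes, with 56 of the 128 genes above 0. Without replicate 2 the medians were -0.487 and 0.016. 1700024J04Rik, at 8.63 and 8.36 under low protein and 10.16 under caloric restriction, had a difference of -1.67 ± 0.24 (adjusted p by limma 0.0598). 1700001J03Rik (-1.57), Pierce1 (1700007K13Rik, -1.45), 1700080O16Rik (-1.43), 1700010I14Rik (-1.40) and 1700123L14Rik (-1.31) had the next smallest p. Higher under low protein, with none past the threshold, were 1700120B22Rik (0.84), 1700025H01Rik (0.69), 1700016C15Rik (0.66), 1700066M21Rik (0.62), 1700071K01Rik (0.61) and 1700025G04Rik (0.55). Leaving out either low protein array left 1 array on each side, so calls of those fits are not counted.

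The marker lists of the cell types were followed over the same sperm arrays. The late spermatid markers averaged 10.14, 9.99 and 9.78 in control sperm, 10.56 and 10.99 under low protein and 10.76 under caloric restriction, and 4 of the 12 rose under caloric restriction. The 8 spermatocyte markers averaged 4.91, 4.87 and 4.64, then 5.18 and 5.45, then 5.76, and 3 of them rose under caloric restriction. The 8 markers of ciliated cells, such as Foxj1 and Dnah5, averaged 6.53, 6.40 and 6.37, then 6.91 and 7.10, then 7.48, with 4 rises under caloric restriction. In epididymis this list averaged 5.69 and 5.66, below every sperm array. In the other direction, 23 epididymal epithelium markers averaged 6.71, 6.82 and 6.73 in control sperm, 6.57 and 6.35 under low protein and 6.23 under caloric restriction, against 7.52 and 7.43 in epididymis; 3 of them fell under caloric restriction. Smooth muscle markers averaged 7.64, 7.58 and 7.40 in control sperm, 7.15 and 6.82 under low protein and 7.26 under caloric restriction, with no call. The fibroblast and matrix markers lay between 7.24 and 7.90 on the sperm arrays, and 1 of 9 fell under caloric restriction. Other lists had no such order and no call: 5 spermatogonia markers averaged 6.66, 6.54 and 6.60 in control sperm, 6.35 and 6.61 under low protein and 6.47 under caloric restriction. On the sperm arrays 5 Sertoli markers averaged 7.09 to 7.46, 4 Leydig markers 4.45 to 5.16, 5 endothelium markers 5.38 to 5.68, 9 leukocyte markers 6.62 to 7.30 and the 1 erythroid marker measured 5.18 to 6.19. The part of these cell types in the differences of the 1700 series was not tested.
Names of other clone libraries were used as a comparison for diet as well. Of the 180 genes named for other testis libraries, 30 rose under caloric restriction and 9 under both diets, with medians of 0.247 and 0.304. Of the 426 other RIKEN genes, 5 and 2 rose, with medians of -0.129 and -0.034. No test was made between the lists.

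In epididymis the diets were compared on 1 array each, and this difference was described without a test. None of the 128 genes differed by at least 2-fold, as did 0.0309% of all genes upward and 0.0927% downward. Of the 128 genes 70 were higher under low protein, 57 were lower and 1 had a difference that rounded to 0, with a median of 0.042. The most positive differences, low protein minus control, were 1700020A23Rik (0.74), 1700013H16Rik (0.60), 1700013G24Rik (0.57), 1700056E22Rik (0.49) and 1700008O03Rik (0.47). The most negative were 1700123L14Rik (-0.70), 1700029F12Rik (-0.62), 1700034I23Rik (-0.52), 1700016D06Rik (-0.45) and 1700020D05Rik (-0.42). Whether the low protein difference was larger in sperm than in epididymis was tested as an interaction over the 8 arrays. None of the 128 genes passed, as 0% of all genes did, and at an unadjusted p under 0.05 27 were higher and 0 lower by limma, where 3.55% and 0.422% of all genes were. The median interaction was 0.45 over the series and 0.005 over all genes.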

How the data were processed

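RNA of 6 sperm and 2 epididymis samples was measured on 1 Affymetrix gene array each. The deposited values are log2 intensities, made by the authors with RMA per the submitters' processing notes; the log2 scale was read from the values (1.17 to 14.53). Such normalization gives the arrays nearly 1 distribution, so a change in total RNA is not visible. Depth does not apply to arrays, and their number limits the precision.

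The table held 33660 probe sets; the platform annotation gave 1 gene to 21222, several to 1541 and none to 10897. Another 51 probe sets of several genes carried a 1700 symbol, 10 of these symbols occurred only there, and they were not used. RefSeq classes were matched for 122 genes by identifier, 4 by symbol and 2 by synonym.

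Fits used limma 3.58.1 in R 4.3.3 (lmFit and eBayes, two-sided, Benjamini-Hochberg over 19411 genes, threshold 0.05), without a level filter. Errors are standard errors. Tissue was fitted over 8 arrays with an additive diet term; the caloric restriction array has a term of its own there. Diets were fitted within sperm, on 6 arrays with 1 mean for each diet, and the interaction over 8 arrays with a mean per group. The fits were tested on simulated data.

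The genes, lists and rules were chosen with earlier results of these data known. The text names, among genes past the threshold whose groups do not overlap, the 12 largest rises and falls for tissue and the 10 largest for each diet comparison. Where fewer than 6 passed in a direction, those of smallest p filled up to 6. Named too are the 6 highest in epididymis, the 5 largest epididymis differences each way, genes with a second probe set or a known product, and the promoters shown. Alternatives were other normalizations between arrays, a 30% level filter, the mean of probe sets, a trend or robust eBayes, an adjusted p of 0.10 and leaving out each array.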

Additional observations from a re-analysis of the deposited data

How the results depend on the processing

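The direction of the medians of the 128 genes held under all settings run, and most counts stayed within 1.5 times. For both restricted diets against control most did not: the count of the series held in 5 settings, was weaker in 6 and stronger in 3. Leaving out each array in turn gave 56 to 100 called genes for sperm against epididymis, 0 to 78 for low protein against control, 24 to 75 for caloric restriction against control, 0 to 54 for both restricted diets against control and 0 to 32 for low protein against caloric restriction. For both restricted diets, cyclic loess gave 14 calls, a trended eBayes 10 and an adjusted p under 0.10 44. Over all genes these settings gave 408, 227 and 946 higher and 5, 4 and 98 lower, beside 372 and 4 in the main fit. For low protein against caloric restriction the same settings gave 15, 5 and 10. Over all genes 186, 49 and 144 were lower there and 1, 1 and 4 higher. For low protein against control the looser threshold gave 26, where 548 of all genes were higher and 26 lower. Single values reversed near 0. Over the left-out arrays, 1700018A04Rik ran from -0.24 to 0.10 for sperm against epididymis, turning above 0 without the control epididymis array. 1700001G17Rik ran from -0.30 to 0.15 for low protein against control, and was 0.06 when control replicate 1 was left out. 1700025H01Rik ran from -0.35 to 0.11 for both diets against control, and was 0.04 with cyclic loess. The counts of array order without low protein replicate 2 were added after the values were seen. The cause of these changes was not tested. No paired analysis was possible because the labels give samples letters of their own and no replicate numbers shared between groups. With 1 caloric restriction array and 1 epididymis array per diet, the spread within those groups was not measured, and dim genes have the least signal over background.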
